A study of Mus musculus with 6 samples.

Results

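Hair shaft keratins are the hard keratins that build the fibre of the hair. The set described here holds 10 genes, chosen by symbol from the 24453 gene symbols in the count tables, and all 10 were listed there. They are 5 acidic type I keratins (Krt31, Krt33a, Krt33b, Krt34 and Krt35) and 5 basic type II keratins (Krt81, Krt82, Krt84, Krt85 and Krt86). Expression was measured by RNA sequencing in newborn mice (postnatal day 0), in back-skin cells sorted for EpCAM, Sca1 and a high level of α6-integrin, a gate for interfollicular epidermis. 3 libraries carried the genotype label Ring1a-/- Ring1b-/- (called dKO here) and 3 were labelled Control. Both groups went through the same digestion, sort and RNA amplification. The labels do not give the alleles of the Control mice, the driver of any conditional deletion, or whether each library came from its own animal, so p-values measure the spread between these libraries only. Ring1a and Ring1b are the ubiquitin ligases of Polycomb repressive complex 1, which holds developmental genes silent, and the comparison asks what that complex does in skin epithelium.

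Each keratin filament is built from type I and type II chains in equal number, so a hair cell expresses partners from both classes. In the hair follicle these genes are switched on in order as cells leave the matrix at the base of the bulb. Krt35 and Krt85 are the early pair of the matrix and the lower shaft, Krt31, Krt33a, Krt33b, Krt34, Krt81 and Krt86 belong to the cortex above it, and Krt82 belongs to the hair cuticle. Krt84 is known mainly from the filiform papillae of the tongue. Interfollicular epidermis normally makes soft keratins instead (Krt5 and Krt14 in its basal layer, Krt1 and Krt10 above), and hair shaft keratins are not among its known products.

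The libraries held 18951665 to 31187270 counts in dKO and 22699108 to 29193535 counts in Control. The markers of the sort were present: Epcam, Ly6a (Sca1) and Itga6 were counted in every library, and Krt5 averaged 17908 CPM in dKO and 23075 CPM in Control (CPM is the count scaled to a common library size). A library without a count could still hold up to 3, which is 0.0974 to 0.154 CPM. Ring1, the gene of Ring1a, had 1.66, 5.20 and 14.2 CPM in dKO replicates 1 to 3, against 30.9, 17.1 and 3.90 CPM in Control replicates 1 to 3, so the replicate 3 libraries stood against their labels. An exchange of these 2 labels was not tested, and genes called here are also given without both libraries. The X-inactivation RNA Xist was at 6129, 4734 and 4.48 CPM in dKO against 10.5, 6.90 and 1756 CPM in Control, so its high libraries were dKO replicates 1 and 2 and Control replicate 3. With Xist as a covariate the Krt85 call described below was lost (edgeR adjusted p = 0.0875). Rnf2, the gene of Ring1b, had 55.4, 64.0 and 59.0 CPM in dKO against 43.2, 63.1 and 47.5 CPM in Control. Which exons were deleted is not stated in the labels, so counts over the whole gene do not check the deletion.

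The 5 hair shaft keratins with an entry in the RefSeq promoter table lie in the keratin clusters of chromosomes 11 and 15. The 250 bases before the start of 4 of them are shown because these genes split by direction of their counts: Krt34 and Krt84 had more counts in dKO, and Krt31 and Krt82 had more in Control. All are on the minus strand of GRCm38.p6 and are written 5′ to 3′ in the direction of the gene: Krt34 at chr11:100041555-100041804, Krt84 at chr15:101532821-101533070, Krt31 at chr11:100050552-100050801 and Krt82 at chr15:101550660-101550909. Capitals mark 3 motifs, searched on both strands: CTTTGA, the core of the LEF1 element known from hair keratin promoters, TTTATNGG, a form of the site known for the hair factor HOXC13, and TATAAA, the TATA box.
Krt34: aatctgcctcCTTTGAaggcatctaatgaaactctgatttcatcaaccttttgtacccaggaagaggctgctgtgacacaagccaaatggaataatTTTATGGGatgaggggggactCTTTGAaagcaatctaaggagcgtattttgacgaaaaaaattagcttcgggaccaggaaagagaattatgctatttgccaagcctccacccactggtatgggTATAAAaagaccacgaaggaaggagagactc
Krt84: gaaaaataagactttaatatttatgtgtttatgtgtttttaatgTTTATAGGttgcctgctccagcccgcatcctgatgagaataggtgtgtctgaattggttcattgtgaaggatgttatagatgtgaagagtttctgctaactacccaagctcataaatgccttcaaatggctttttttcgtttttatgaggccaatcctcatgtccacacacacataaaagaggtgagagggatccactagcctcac
Krt31: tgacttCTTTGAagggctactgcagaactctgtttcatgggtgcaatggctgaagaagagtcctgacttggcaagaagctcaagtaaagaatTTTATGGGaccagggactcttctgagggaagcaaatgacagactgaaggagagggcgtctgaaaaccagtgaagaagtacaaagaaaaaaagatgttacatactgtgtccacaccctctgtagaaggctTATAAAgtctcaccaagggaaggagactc
Krt82: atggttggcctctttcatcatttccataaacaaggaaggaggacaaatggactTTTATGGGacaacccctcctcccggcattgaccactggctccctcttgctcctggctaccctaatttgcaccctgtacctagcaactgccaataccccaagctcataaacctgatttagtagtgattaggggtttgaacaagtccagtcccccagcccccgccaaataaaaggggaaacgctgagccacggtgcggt

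TTTATNGG was found in 4 of the 5 promoters (Krt31, Krt34, Krt82 and Krt84), and in 2.49% of the 32851 promoter windows of the table. CTTTGA was found in Krt31, Krt33b and Krt34, the type I members, and in 13.8% of all windows. TATAAA was found in Krt31, Krt33b, Krt34 and Krt84, and in 12.4% of all windows; in Krt84 it is the reverse complement (TTTATA) and overlaps TTTATNGG, and it does not sit near the start. Krt34 and Krt31 share an arrangement, with CTTTGA from 240 and 244 bases before the start, TTTATNGG from 154 and 158 bases and TATAAA from 31 and 29 bases. Krt34 has a second CTTTGA from 133 bases, which Krt31 lacks. The few counts of these genes lay on opposite sides, and neither was called without a count filter (edgeR adjusted p = 0.286 for Krt34 and 0.387 for Krt31). A link between motifs and counts was not tested. A motif match is a description of these letters and not a bound site.

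Krt85 was the only hair shaft keratin with enough counts to be tested, and it rose. It passed the count filter through its dKO counts, the group where it is high. It had 59, 98 and 113 counts in dKO replicates 1, 2 and 3, against 2, 15 and 1 counts in Control replicates 1, 2 and 3. As levels these were 2.04, 5.04 and 3.67 CPM in dKO and 0.0750, 0.655 and 0.0342 CPM in Control, or 3.58 ± 1.5 CPM in dKO and 0.255 ± 0.347 CPM in Control (mean ± SD, n = 3 each). Every dKO library lay above every Control library, and Control replicate 2 was the highest of its group. The log2 fold change, dKO over Control, was 3.83 ± 1.02 (SE; edgeR quasi-likelihood adjusted p = 0.0490, n = 3 libraries per group), just inside the threshold of 0.05. Of all 14890 genes tested, 1068 (7.17%) were called higher and 444 (2.98%) lower, and 17.6% had every dKO library above every Control library, as Krt85 did. In bulk RNA, more cells of a type and more RNA per cell cannot be told apart.

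The rise of Krt85 was large in fold but small in amount. Krt85 reached 0.0200% of the Krt5 CPM in dKO, a ratio of counts that is not corrected for transcript length. Its mean dKO level was above that of 23.0% of the genes tested, whose median was 18.2 CPM. Krt85 held 74.6% of all hair shaft keratin counts in dKO, 270 of 362, and 12.6% in Control, 18 of 143. By library the share was 69.4, 81.7 and 72.0% in dKO and 6.45, 25.9 and 1.85% in Control, so the Control share came mainly from replicate 2.

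The Krt85 call rested on most of the libraries together. The adjusted p was 0.0573 without dKO replicate 1, 0.151 without dKO replicate 2, 0.111 without dKO replicate 3, 0.121 without Control replicate 1 and 0.115 without Control replicate 3 (edgeR), while without Control replicate 2 it was 0.0114 with a log2 fold change of 5.93. Without both replicate 3 libraries, whose Ring1 levels stood against the labels, the log2 fold change was 3.27 (edgeR adjusted p = 0.225).

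**Figure D1:**
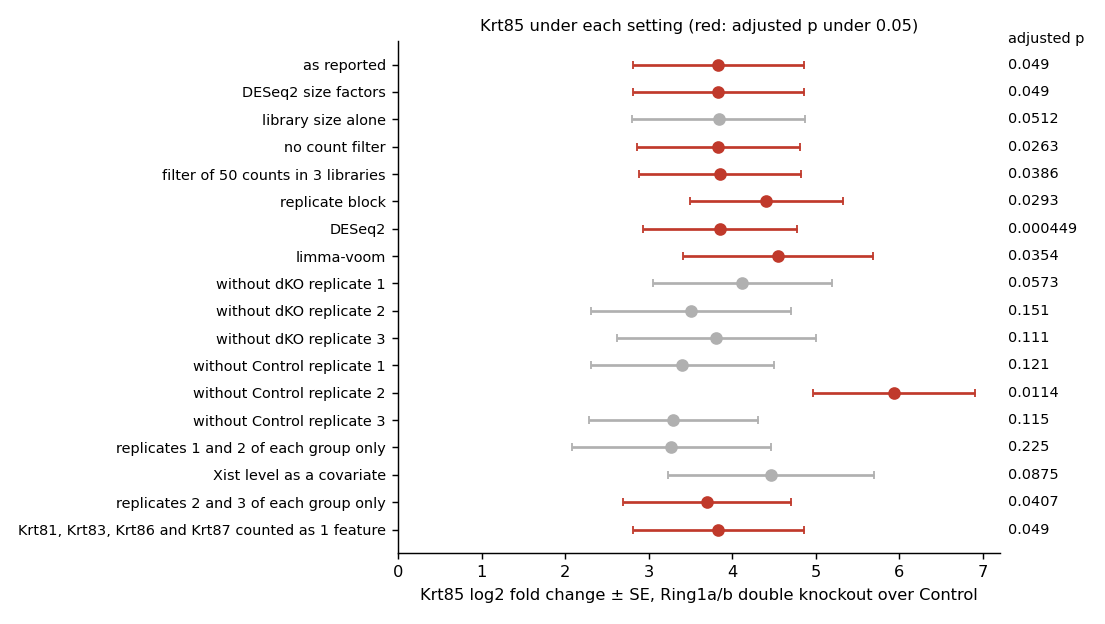
Log2 fold change of Krt85, dKO over Control, with its SE (horizontal axis), as reported and under each of 17 other settings, with the adjusted p at the right. All values are positive, from 3.27 to 5.93, and 9 of the 17 have an adjusted p under 0.05 (red). The 9 include both of the 2 settings that were added with the values known.

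The other 9 hair shaft keratins were too sparse for the test. No library held more than 34 counts of any of them, and Krt33b, a cortex keratin, had none in any library. Fitted without a count filter, 0 of the 8 that had a count were called by edgeR, where 6.06% of 19884 genes were called higher and 2.68% lower, 1 had an unadjusted p under 0.05 (Krt35) and DESeq2 called 1 (Krt35 again, lower); limma-voom, run on the filtered genes, did not test them. 4 of the 8 had a higher mean CPM in dKO (Krt33a, Krt34, Krt84 and Krt86) and 4 a lower one (Krt31, Krt35, Krt81 and Krt82). Summed without Krt85, the members gave 0.900, 1.13 and 1.43 CPM in dKO and 1.09, 1.88 and 1.81 CPM in Control, and these ranges overlap.

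**Figure D2:**
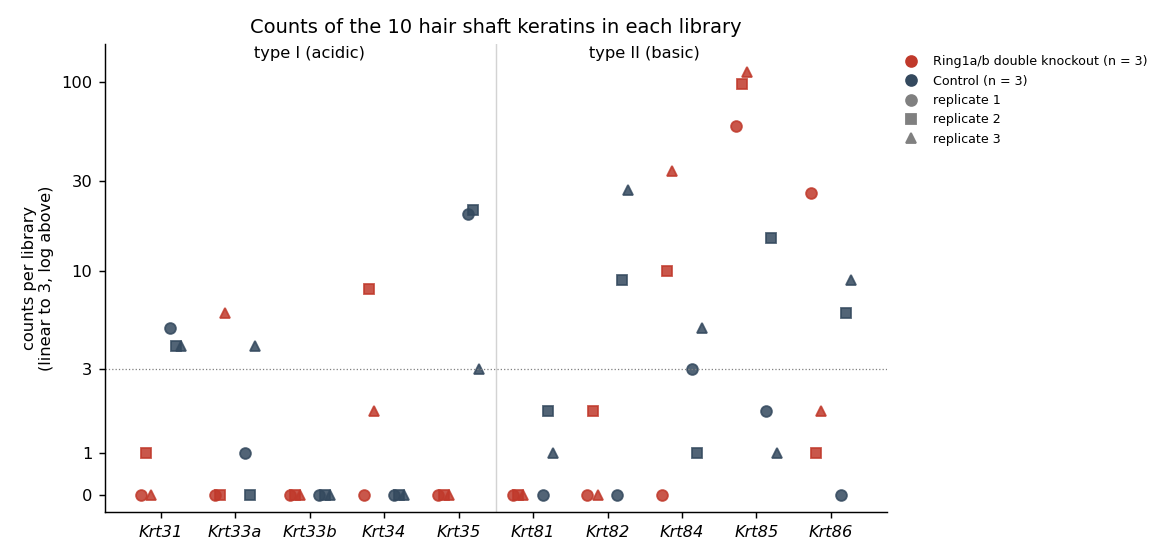
Counts of each of the 10 hair shaft keratins in each library (vertical axis, linear up to 3 counts and logarithmic above), dKO at the left and Control at the right of each gene, with a marker shape for each replicate. Krt85 reaches 59 to 113 counts in dKO against 1 to 15 in Control, while Krt35 has 0 counts in dKO against 3 to 21 in Control and most other points lie under 10.

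Krt35, the early type I partner in the matrix, went the other way from Krt85. It had 0 counts in all 3 dKO libraries, against 20, 21 and 3 counts in Control replicates 1, 2 and 3 (0.750, 0.917 and 0.103 CPM). The groups did not overlap, as in 14.8% of all tested genes for lower values, and Control replicate 3 had only as many counts as a library at 0 could hide. Against 3 counts over the dKO group, the level was at least 14.7-fold lower in dKO, a bound that covers counting error only. The gene failed the count filter of the main comparison; without that filter its edgeR adjusted p was 0.0571, and DESeq2 gave an adjusted p of 0.0131. Without both replicate 3 libraries it passed the filter, and its edgeR adjusted p was 0.134. It lies on chromosome 11, 100092193 to 100096241, minus strand (GRCm38, GENCODE).

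The cortex keratins of type I gave a few counts at most. Krt31 had 0, 1 and 0 counts in dKO and 5, 4 and 4 in Control, so Control was higher in each library; the ratio of counts, Control over dKO, was 13.05 with a 95% counting interval of 1.96 to 555. Without a count filter its edgeR adjusted p was 0.387. Krt34 had 0, 8 and 2 counts in dKO and none in Control, 3.32-fold higher in dKO against 3 counts over the Control group. The 95% counting interval of its ratio, dKO over Control, began at 2.23. Of its 10 counts 8 came from dKO replicate 2 (edgeR adjusted p = 0.286 without a count filter). Krt33a had 0, 0 and 6 counts in dKO and 1, 0 and 4 in Control, which overlap. Summed, the 5 type I members had 0, 9 and 8 counts in dKO against 26, 25 and 11 in Control.

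Among the type II members other than Krt85, single libraries carried most of the counts. Krt84, the tongue papilla keratin, had 0, 10 and 34 counts in dKO and 3, 1 and 5 in Control. Its dKO mean was 0.540 ± 0.552 CPM against 0.109 ± 0.0637 CPM in Control (SD, n = 3), and dKO replicate 1 lay below every Control library. Krt86, of the cortex, had 26, 1 and 2 counts in dKO and 0, 6 and 9 in Control, so its higher dKO mean came from replicate 1. Krt82, of the cuticle, had 0, 2 and 0 counts in dKO and 0, 9 and 27 in Control, a ratio of 18.1 for Control over dKO (95% counting interval 4.65 to 155), with Control replicate 1 at 0 as well. Krt81, of the cortex, had no count in dKO and 0, 2 and 1 in Control, too few to give a fold. Without a count filter the edgeR adjusted p of these 4 genes was 0.318 to 0.808.

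Per kilobase of exon (GENCODE), which allows levels of different genes to be compared, the order of the members differed between the groups. In dKO, Krt84 averaged 0.204 CPM per kb, Krt86 0.173 and Krt34 0.0987, with the rest under these, and the spread of each across libraries was as large as its mean or larger. In Control, Krt35 averaged 0.246 CPM per kb, Krt82 0.208, Krt31 0.105 and Krt86 0.0968. Neighbours in these orders did not differ beyond their spread. Krt85 has no length in the annotation used here and is left out of this order.

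Near-identical paralogs limit what single counts mean. Of all windows of 100 bases (the read length) in the longest transcript, 29.0% in Krt81 and 24.6% in Krt86 were also found in another gene, mainly in each other, Krt83 and Krt87. In the type I cluster 17.5% of windows were shared for Krt34, 14.0% for Krt31, 12.4% for Krt33a and 4.0% for Krt33b. Krt82 and Krt84 shared none, and Krt35 shared 0.1%. How reads that match 2 genes were counted is not stated in the labels, so the counts of Krt31, Krt33a, Krt33b, Krt34, Krt81 and Krt86 are uncertain in their split. Krt85 has no entry in the annotation used here, so windows it may share with Krt87 or any other gene were not assessed. Whether its counts have the same limit is therefore not known. Krt87, outside the set, shared windows with Gm49425 as well as with Krt81, Krt83 and Krt86. No other annotated gene overlapped any of the 9 members with a position.

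Of the 6 other hard keratins listed (Krt32, Krt36, Krt39, Krt40, Krt83 and Krt87), 3 were tested and edgeR called 0, with 2 at an unadjusted p under 0.05 and 2 called by DESeq2 (Krt36 and Krt87). Krt87, a type II hair keratin, had 73, 71 and 119 counts in dKO and 1, 16 and 1 in Control, values close to those of Krt85 in each library, with a log2 fold change of 3.73 ± 1.07 (SE, n = 3; edgeR adjusted p = 0.0636, 0.00733 to 0.152 when 1 library was left out, lowest without Control replicate 2, 0.0373 without a count filter and 0.294 without both replicate 3 libraries). It lies on chromosome 15, 101431038 to 101438804, minus strand. Krt36, a type I hard keratin, had 30, 21 and 26 counts in dKO and 0, 0 and 5 in Control, a log2 fold change of 3.93 ± 1.23 (SE, n = 3; edgeR adjusted p = 0.0826, and 0.109 without both replicate 3 libraries). Krt32, a cuticle keratin, had 0, 10 and 30 counts in dKO and 22, 40 and 46 in Control, which overlap (edgeR adjusted p = 0.483). Krt36 and Krt87 passed the count filter through their dKO counts, so the values of the tested genes do not describe all 6. Krt36 and Krt32 were named after their values were seen. Across all 16 hard keratins, Krt85, Krt87 and Krt36 were the 3 with every dKO library above every Control library, and Krt31 and Krt35 the 2 with every dKO library below. These are 18.8% and 12.5% of the 16, beside 17.6% and 14.8% of all tested genes. The sets are unlike, since only 4 of the 16 were tested and genes at 0 in both groups cannot separate. Krt85, Krt87 and Krt36 were tested, and Krt31 and Krt35 were not.

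**Figure D3:**
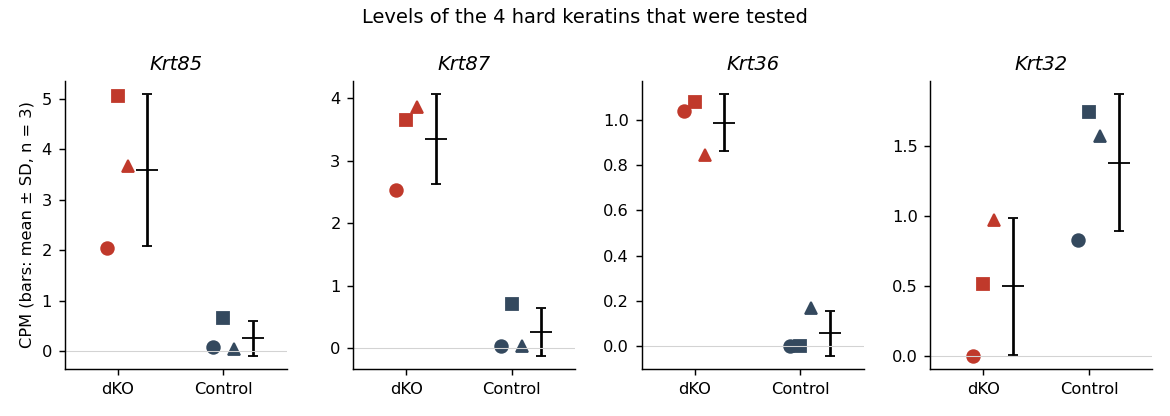
CPM of the 4 hard keratins that passed the count filter, 1 point per library, dKO at the left and Control at the right of each panel, with the mean ± SD of 3 libraries beside the points. Krt85, Krt87 and Krt36 lie higher in every dKO library, and Krt32 overlaps between the groups.

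Krt81, Krt83, Krt86 and Krt87 share part of their sequence, so their counts were also summed into 1 feature (chosen with the values known). The sum was 101, 74 and 121 counts in dKO and 1, 24 and 11 in Control, with a log2 fold change of 2.95 ± 0.90 (SE, n = 3; edgeR adjusted p = 0.0779). Krt87 supplied most of it in dKO.

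In the type I cluster, Krt36 starts 9.4 kb from Krt35, and the first had counts in every dKO library where the second had none; neither was called, and no test of position was made. In the type II cluster, Krt84 and Krt82 start 17.8 kb apart, with the higher mean in dKO for Krt84 and in Control for Krt82, but both overlapped between the groups and neither was tested. The keratins at the edge of the same stretches included Krt6a, a keratin of wounded epidermis, which was called higher (1512 CPM in dKO and 61.7 CPM in Control; log2 fold change 4.62 ± 0.90, SE; edgeR adjusted p = 0.0143, n = 3; 0.0523 without Control replicate 3 and 0.0798 without both replicate 3 libraries), and Krt71, of the inner root sheath, which was called lower.

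**Figure D4:**
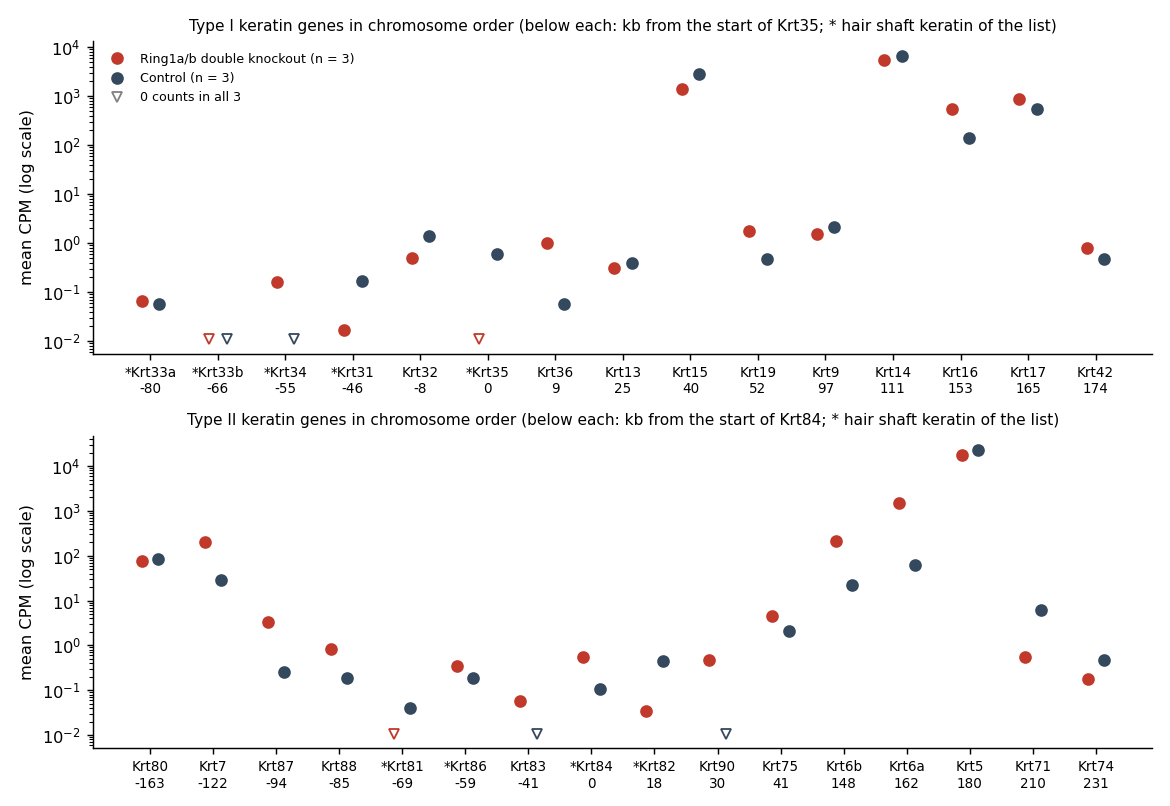
Mean CPM (log scale) of the keratin genes on either side of Krt35 (type I, above) and Krt84 (type II, below) in dKO and Control, in chromosome order with the distance of each start from the named gene in kb; open triangles mark 3 libraries at 0. Krt36 and Krt87 are higher in dKO, Krt35 and Krt71 are higher in Control, and the hard keratins lie far below Krt5 and Krt14; Krt85 has no position in the annotation used and is not drawn.

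Most regulators of the hair matrix and shaft did not pass. Of 20 listed 18 were tested, and edgeR called 1 higher and 2 lower (5.56% higher, against 7.17% of all genes); DESeq2 called 5; the median over the list was -0.06 (log2 fold change), and over all genes 0.00. Trps1, a GATA-type repressor needed for hair, rose to 112, 118 and 122 CPM in dKO against 27.4, 27.9 and 17.4 CPM in Control (log2 fold change 2.28 ± 0.23, SE, n = 3; edgeR adjusted p = 9.2e-04, and 0.0178 without both replicate 3 libraries). Lef1, the Wnt effector of the hair matrix, fell to 110, 105 and 143 CPM in dKO against 329, 217 and 231 CPM in Control (edgeR adjusted p = 0.0145; 0.0698 without dKO replicate 2 and 0.0719 without both replicate 3 libraries). Sox21, a factor of the hair cuticle, fell by 1.27 on the log2 scale (edgeR adjusted p = 0.00828; 0.0932 without both replicate 3 libraries). Hoxc13, a homeobox activator of hair keratin genes, named after its values were seen, had 9.72, 12.7 and 21.98 CPM in dKO and 7.198, 3.06 and 1.09 CPM in Control; the groups did not overlap and the test did not pass (log2 fold change 1.97 ± 0.63, SE, n = 3; edgeR adjusted p = 0.0904, 0.0333 to 0.236 when 1 library was left out, lowest without Control replicate 1, 0.0496 without a count filter and 0.403 without both replicate 3 libraries; DESeq2 adjusted p = 0.00911).

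Other genes of the shaft were not called by edgeR after the count filter. Of 7 structural shaft genes outside the keratins 6 were tested and edgeR called 0, with 0 at an unadjusted p under 0.05 and 0 called by DESeq2, and the median log2 fold change was 0.56. Mt4, an epithelial metallothionein with the highest mean of this list, had 22, 51 and 171 counts in dKO and 0, 27 and 14 in Control, which overlap (edgeR adjusted p = 0.263). Keratin-associated proteins, which cross-link hair keratin filaments, were mostly without counts: 22 of 54 had a count in any library, 2 were tested and edgeR called 0, with 1 at an unadjusted p under 0.05 and 1 called by DESeq2 (Krtap10-10). All 54 summed to 4.01 to 20.3 CPM in dKO and 27.2 to 46.6 CPM in Control. Krtap10-10 made up most of their counts, with 3.25, 12.4 and 17.5 CPM in dKO and 41.6, 40.2 and 24.3 CPM in Control (log2 fold change -1.68 ± 0.53, SE, n = 3; edgeR adjusted p = 0.0837, 0.0484 to 0.191 when 1 library was left out, lowest without dKO replicate 1, and 0.0413 without a count filter; DESeq2 adjusted p = 0.00781). The others summed to 0.761 to 4.22 CPM in dKO and 2.94 to 5.02 CPM in Control.

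Keratins Krt25, Krt27 and Krt71 of the inner root sheath, the layer that moulds the shaft, fell in dKO. Of 11 listed genes of that sheath and the companion layer 8 were tested, and edgeR called these 3 lower and 0 higher, where 2.98% of all genes were called lower. All 3 passed the count filter through their Control counts, the group where they are high. Their share of the list therefore leans to genes high in Control. Krt75, of the companion layer, had 232, 90 and 35 counts in dKO and 57, 71 and 34 in Control (edgeR adjusted p = 0.389), and it, Krt73, Krt74 and Tchh overlapped between the groups. Krt25, a type I sheath keratin, had no count in dKO against 115, 322 and 140 counts in Control, at least 193-fold lower (edgeR adjusted p = 0.00329, and 0.0199 without both replicate 3 libraries). Krt27 averaged 0.268 ± 0.115 CPM in dKO and 3.05 ± 2.09 CPM in Control (edgeR adjusted p = 0.0235), and Krt71 0.548 ± 0.474 CPM in dKO and 6.06 ± 4.07 CPM in Control (edgeR adjusted p = 0.0268; SD, n = 3). Calls ended without both replicate 3 libraries (edgeR adjusted p = 0.0966 for Krt27 and 0.123 for Krt71), and also for Krt27 without dKO replicate 1, 2 or 3 or Control replicate 2 (up to 0.116) and for Krt71 without dKO replicate 1 or 3 or Control replicate 2 (up to 0.0997). Of 10 genes of the outer root sheath and follicle progenitors 1 rose, Krt79 of the upper follicle (447 ± 55.8 CPM in dKO and 27.3 ± 14.9 CPM in Control, SD, n = 3; edgeR adjusted p = 8.6e-04, and 0.00701 without both replicate 3 libraries), which was named after its values were seen. The other 9 did not pass in edgeR, and 1 of 10 is near the 7.17% of all genes; DESeq2 called 4 of the list.

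**Figure D5:**
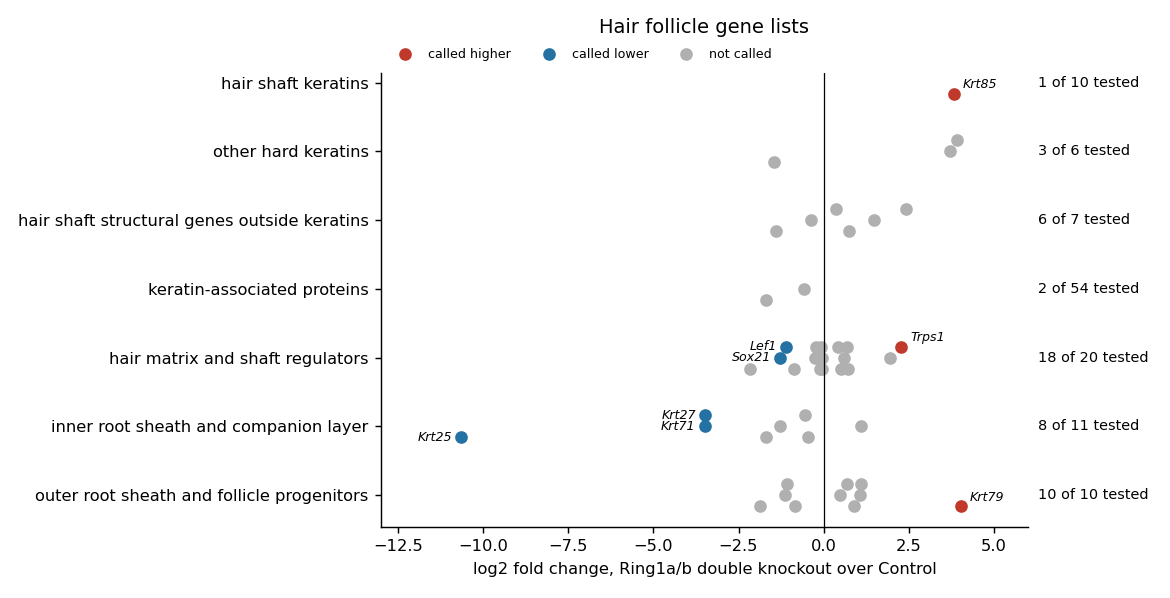
Log2 fold change, dKO over Control, of each tested gene of 7 hair follicle lists, with the number tested of those listed at the right; red and blue mark genes called higher and lower. Krt85 and 2 other hard keratins lie near 4, Krt25, Krt27 and Krt71 of the inner root sheath lie to the left, and the value of Krt25 is a fit to a group at 0 counts.

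Some markers of other cell types moved beside Krt85, and others of the same lists did not. Of 6 Merkel cell markers 3 were tested and edgeR called all 3 higher (Krt18, Isl1 and Piezo2, against 7.17% of all genes), with a summed level of the list of 51.1 to 101 CPM in dKO and 4.85 to 10.1 CPM in Control. Krt18 and Piezo2 made up most of that sum. The other 3, untested, overlapped between the groups: Krt8 had 57, 4 and 6 counts in dKO and 32, 0 and 6 in Control, Krt20 had 63, 7 and 1 in dKO and 0, 3 and 4 in Control, and Atoh1, a defining factor of the cell type, had 0, 3 and 3 in dKO and 1, 0 and 10 in Control. Without both replicate 3 libraries the edgeR adjusted p of Krt18, Isl1 and Piezo2 was 0.0125, 0.0460 and 0.0441. Of 6 genes listed as dermal papilla markers edgeR called 3 higher (Sox2, Crabp1 and Alpl, with edgeR adjusted p = 0.0381, 0.00968 and 0.0387 without both replicate 3 libraries). The other 3 did not pass, overlapped between the groups and differed in sign. Their log2 fold changes were 2.13 for Alx4, -0.49 for Corin and -2.35 for Sox18. The list summed to 13.8 to 22.2 CPM in dKO and 1.18 to 2.81 CPM in Control, and Sox2, Crabp1 and Alpl made up most of the dKO sum. Isl1, Sox2, Crabp1 and Alpl passed the count filter through their dKO counts, the group where they are high. The shares called in the Merkel cell and dermal papilla lists therefore lean to genes high in dKO. Sox2 was counted in the dermal papilla list only, and whether it also marks another listed cell type was not assessed. The 8 melanocyte markers summed to 19.8 to 34.1 CPM in dKO and 14.6 to 19.1 CPM in Control, with 6 tested and 0 called by edgeR (3 at an unadjusted p under 0.05, 2 called by DESeq2). Lists for fibroblasts, endothelium and immune cells had 0 of 8, 0 of 5 and 0 of 3 tested genes called by edgeR (2, 0 and 0 at an unadjusted p under 0.05, and 0 in each by DESeq2), and their sums overlapped between the groups. The part of these cell types in the Krt85 counts was not tested. Of the hair cortex members listed above, Krt31, Krt33b and Krt81 had 1 count or none in each dKO library, while Krt33a, Krt34 and Krt86 had up to 6, 8 and 26 counts in 1 of them.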

How the data were processed

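Counts per gene symbol were used as the authors deposited them, 1 table per library. Per the submitters' processing notes, the genome was mm10 and the tools were HTSeq 0.6.1, TopHat2 2.0.13, DESeq2 1.6.3 and Cufflinks 2.2.1; no annotation or strand of counting is stated there. Per the labels' protocols, 10 ng of RNA was amplified and read as single reads of 100 nucleotides. Groups came from the sample titles.

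All genes were fitted with edgeR 4.0.16 (R 4.3.3): TMM, filterByExpr (min.count 10, min.total.count 15), the quasi-likelihood F test, two-sided and without covariates, prior count 0.125, and calls at a Benjamini-Hochberg adjusted p under 0.05. CPM uses TMM library sizes (factors 0.927 to 1.04). Floors of 3 counts and exact 95% intervals cover counting error only. The test was run on simulated data first. Named genes were the 10 members and, of each hair list, up to 4 called genes with the smallest p or else the gene with the highest mean; others were named after their values were seen. The members, lists and motifs were chosen with earlier results of these data known. The alternatives were DESeq2 1.42.0, limma-voom (limma 3.58.1), other scalings and filters, a replicate block, an Xist covariate and left-out libraries. Positions, lengths and shared windows come from GENCODE M21 (GRCm38), and promoters from RefSeq (GRCm38.p6), where 5 of the 10 members matched. Figures used matplotlib 3.10.9.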

Additional observations from a re-analysis of the deposited data

How the results depend on the processing

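The Krt85 log2 fold change was positive under all 17 alternatives run (3.27 to 5.93), and its adjusted p was under 0.05 in 9 of them (range 4.5e-04 to 0.225). Of the 17, 15 were planned and 2 were added with the values known, and both of these are among the 9. They are replicates 2 and 3 only (edgeR adjusted p = 0.0407) and the summed feature without Krt85, which leaves Krt85 as reported (edgeR adjusted p = 0.0490). The number of hair shaft keratins called higher was 1 as reported and 0 with library size alone as scaling (Krt85 adjusted p = 0.0512), with replicates 1 and 2 only and with Xist as a covariate (edgeR adjusted p = 0.0875), and 0 to 1 when 1 library was left out. The number called lower was 0, and 1 with DESeq2 (Krt35). Over all genes, DESeq2 called 1683 higher and 877 lower, replicates 1 and 2 only gave 354 and 85, the Xist covariate 640 and 176, and replicates 2 and 3 only (chosen after the data were seen) 1633 and 1061, against 1068 and 444 as reported; leaving out 1 library gave 630 to 957 higher and 174 to 436 lower. The cause of these shifts was not tested.

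Replicate numbers are not said to pair libraries: deviations from the group mean correlated at 0.161, 0.202 and 0.0706 between libraries with the same number, and each library correlated best with its own number. With the replicate block 1016 genes were called higher and 435 lower, and 1 hair shaft keratin (Krt85, edgeR adjusted p = 0.0293) was higher and 0 lower; Krt87, outside the set, then passed (edgeR adjusted p = 0.0452). Depth limits the other 9 members, since 3 counts equal 0.0974 to 0.154 CPM.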
